A study of Mus musculus with 4 samples.

Results

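The genes examined here encode 45 components of T cell receptor (TCR) signalling, chosen as a fixed list of the receptor complex, its proximal kinases, adaptors, regulators and the calcium-NFAT arm, and matched by gene symbol to the deposited tables. The list was chosen with earlier results of these data known. All 45 were found among the 55367 gene symbols, and all 45 passed the low-count filter that left 12403 genes for testing. Transcript levels were measured by RNA-seq in splenic CD4+ T cells of C57BL/6 mice, in 2 libraries labelled WT and 2 labelled *Satb1* conditional knockout (cKO), with no treatment and with neither age nor sex on the labels. SATB1 folds chromatin and sets gene programmes in developing T cells. The study deleted a floxed *Satb1* in the CD4 lineage with *Thpok-cre*, which acts from CD4 commitment in the thymus onward, so both conventional and regulatory T (Treg) cells are targeted. Sorted CD4+ cells were not separated further, and the labels do not say which Cre each library carried or whether the WT mice carried Cre or floxed alleles. The comparison asks whether the machinery that reads antigen differs in transcript level between the genotypes.

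A T cell reads antigen through the TCR, which has no enzymatic activity of its own and signals through the CD3 and zeta chains. The kinase LCK phosphorylates their tails, ZAP-70 docks there and phosphorylates the scaffold LAT, and a complex on LAT releases calcium and activates RAS and protein kinase C theta. Phosphatases, ubiquitin ligases and lipid kinases hold the pathway back, and surface receptors such as CD28 and CD5 tune it.

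The total gene count was 4495902 to 6555699 per library. The transcript of the targeted gene did not separate the labels, with *Satb1* at 868 and 984 CPM (counts scaled to library size) in WT 1 and WT 2 and 945 and 847 CPM in cKO 1 and cKO 2 (log2 fold change -0.05, SE 0.12, edgeR adjusted p = 0.877, interval of the fold 0.80 to 1.17). These counts are over the whole gene and cannot show whether its floxed part was deleted. *Foxp3*, the gene of the Treg factor, was at 142 and 121 CPM in WT and 405 and 547 CPM in cKO (log2 fold change 1.86, adjusted p = 0.000447). *Pdcd1*, the gene of PD-1, was at 27.2 and 24.2 CPM against 49.9 and 45.7 CPM (0.89, adjusted p = 0.0113), and it lost the call without WT 2 (0.81, adjusted p = 0.117). Sex-linked transcripts split with the labels (*Xist* had 5447 and 4235 counts in WT against 9 and 6 in cKO). The Y-linked *Ddx3y* had 0 and 0 counts in WT against 525 and 597 in cKO, and *Uty* had 0 and 0 against 138 and 164. *Eif2s3y* and *Kdm5d* had 1 and 0 counts each in WT, against 505 and 405 and against 362 and 398 in cKO. By these transcripts the WT libraries are female and the cKO libraries male. Each cKO to WT difference given here, that of *Themis* included, is therefore also a difference between the sexes. None of the 45 genes lies on X or Y. The CD4 T cell markers *Cd4*, *Zbtb7b*, *Trac*, *Trbc1*, *Trbc2* and *Cd40lg* summed to 3372 and 3276 CPM in WT and 3931 and 3450 CPM in cKO. Of these 6, 2 were called higher, *Zbtb7b* (log2 fold change 0.66) and *Cd40lg* (0.58), and 0 lower. Markers of CD8 T cells summed to 47.7 and 58.5 CPM against 34.3 and 26.8 CPM, of B cells to 19.9 and 19.5 CPM against 76.2 and 30.4 CPM, of myeloid cells to 36.3 and 45.7 CPM against 110 and 62.5 CPM, and of NK cells to 43.8 and 33.8 CPM against 13.9 and 17.6 CPM. The CD8 and NK sums each rested mainly on 1 gene. *Cd8b1* was at 42.4 and 52.0 CPM against 27.4 and 22.5 CPM (log2 fold change -0.91, adjusted p = 0.0201), whereas *Cd8a* was at 5.35 and 6.498 CPM against 6.86 and 4.25 CPM (-0.07, adjusted p = 0.941). *Eomes* made up 39.8 and 32.3 CPM of the NK sum in WT and 11.1 and 17.0 CPM in cKO. Treg markers summed to 1221 and 1095 CPM in WT and 1763 and 1889 CPM in cKO, with 4 of 12 tested called higher and 1 lower, and *Foxp3* is among those higher and in the sum. Naive T cell markers summed to 8056 and 8725 CPM against 8576 and 6401 CPM (1 of 9 called higher and 2 lower), and activated or memory markers to 827 and 738 CPM against 574.5 and 876 CPM (5 of 9 called lower). Over all genes tested, 2.35% were called higher and 1.95% lower. Of the defining markers, *Ebf1* was at 0 in cKO 2, *S100a8* and *S100a9* were at 0 in WT 1, and of the NK markers *Klra8* was at 0 in all 4 libraries, *Klre1* in both WT libraries and *Ncr1* in WT 2 and cKO 2.

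Most transcripts of TCR signalling components differed little in size between the genotypes, with a median absolute log2 fold change of 0.14 for the 45 and 0.19 for all genes tested. Of the 45, 1 was called at an adjusted p under 0.05, and it was *Themis*, which fell. This is 2.22% of the list, against 4.30% of all genes tested (2.35% higher and 1.95% lower). The median log2 fold change of the 45 was 0.12, with single values from -0.53 to 0.39, and that of all genes tested was -0.0015. Without cKO 1 the median of the 45 was 0.048. At an unadjusted p under 0.05 there were 11 genes, 8 higher and 3 lower in cKO, or 24.4% against a background of 19.1% (9.72% higher and 9.39% lower). The fitted value was above 0 for 33 of the 45, and it was above 0 for 49.8% of all genes tested.

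How closely the levels are bounded can be read from the 95% interval of each fold. For 41 of the 45 genes, or 91.1%, this interval lay wholly within 1.5-fold in either direction, as it did for 47.5% of all genes tested. The exceptions were *Themis*, *Grap2*, *Dgka* and *Ppp3ca*. The median SE was 0.11 for the 45 and 0.16 for all genes tested, and their median level was 371 CPM against 30.5 CPM. Together the 45 genes took 1.89% and 1.91% of gene counts in WT and 1.92% and 1.95% in cKO. The WT and cKO libraries did not overlap in CPM for 28 of the 45, or 62.2%, where the share over all genes tested was 50.3%. Of these, 21 were higher and 7 lower in cKO, against 24.8% and 25.4% of all genes tested. In 25 of the 45, replicates of at least 1 genotype differed from each other by more than the genotype means did. The number called was also 1 with RLE scaling (4.38% of all genes tested called), total-count scaling (4.39%), a filter of 1 CPM in 2 libraries (4.03%), DESeq2 (3.44%), limma voom (3.89%) and a replicate block (9.39%). It was 3 by the exact test of edgeR (8.42%) and 3 with no low-count filter (5.72%). Single libraries moved it further. It was 1 without WT 1 (3.62%) and 0 without WT 2 (1.39%), whereas without cKO 1 it was 8 (17.8%, against 11.7% of all genes tested) and without cKO 2 it was 12 (26.7%, against 13.8%). The number bounded within 1.5-fold was 21 without WT 1 and 28 without WT 2.

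**Figure D1:**
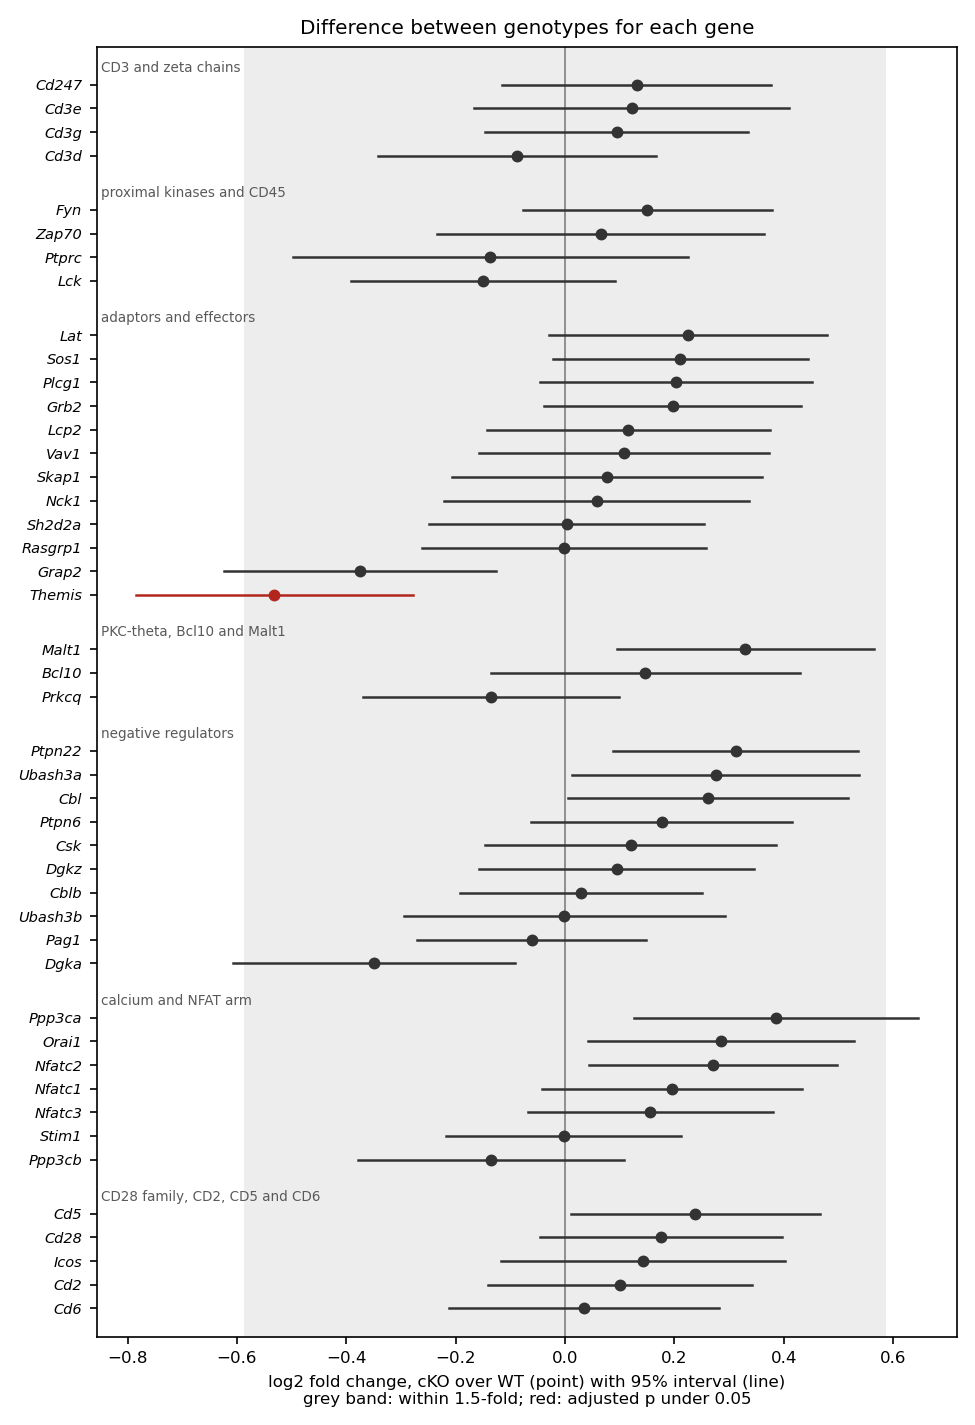
Log2 fold change of each of the 45 genes, cKO over WT, on the horizontal axis, as a point with its 95% interval as a line, grouped by role. *Themis*, in red, has an adjusted p under 0.05, and 41 of the 45 intervals stay inside the grey band of 1.5-fold.

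To place the genes described first, 250 bases upstream of the RefSeq transcription start are shown for *Themis*, the gene that was called, and for *Cd3d*, *Cd3g* and *Cd3e*, which share a cluster on chromosome 9. RefSeq windows on GRCm38.p6 were matched for 35 of the 45 genes. The windows are chr10:28668110-28668359 on the plus strand for *Themis*, chr9:44981536-44981785 on the plus strand for *Cd3d*, chr9:44980432-44980681 on the minus strand for *Cd3g* and chr9:45009612-45009861 on the minus strand for *Cd3e*. Capitals mark GGAAA, the core of an NFAT site, TGTGGT, the core of a RUNX site, and the E-box CANNTG, each searched on both strands.
*Themis*: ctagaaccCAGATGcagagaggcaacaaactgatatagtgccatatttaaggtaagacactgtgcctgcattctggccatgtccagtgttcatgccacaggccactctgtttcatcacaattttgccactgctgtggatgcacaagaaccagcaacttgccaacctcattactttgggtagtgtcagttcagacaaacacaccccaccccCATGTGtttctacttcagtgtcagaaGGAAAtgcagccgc
*Cd3d*: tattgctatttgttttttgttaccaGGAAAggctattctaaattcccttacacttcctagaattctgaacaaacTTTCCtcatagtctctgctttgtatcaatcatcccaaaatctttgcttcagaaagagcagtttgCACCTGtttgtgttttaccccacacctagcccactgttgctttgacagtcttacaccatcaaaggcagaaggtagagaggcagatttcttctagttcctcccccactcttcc
*Cd3g*: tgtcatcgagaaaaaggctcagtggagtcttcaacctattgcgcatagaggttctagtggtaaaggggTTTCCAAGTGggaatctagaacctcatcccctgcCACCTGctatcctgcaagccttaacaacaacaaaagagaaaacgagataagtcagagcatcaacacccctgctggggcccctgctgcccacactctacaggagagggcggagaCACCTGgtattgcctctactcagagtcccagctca
*Cd3e*: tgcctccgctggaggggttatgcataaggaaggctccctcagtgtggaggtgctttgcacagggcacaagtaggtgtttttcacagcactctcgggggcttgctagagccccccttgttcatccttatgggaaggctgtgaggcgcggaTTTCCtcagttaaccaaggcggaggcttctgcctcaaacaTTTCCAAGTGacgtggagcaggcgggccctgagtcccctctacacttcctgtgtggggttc
GGAAA was found 1 time in *Themis*, 2 times in *Cd3d*, 1 time in *Cd3g* and 2 times in *Cd3e*, and 55.6% of all 32851 windows of this length hold it. The E-box was found 2, 1, 3 and 1 times in the same order, and 66.2% of all windows hold it. In *Cd3g* and in *Cd3e*, 1 GGAAA match overlapped an E-box. TGTGGT was not found in these windows, and 14.0% of all windows hold it.

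*Themis* encodes a T cell protein that binds GRB2 and is needed for positive selection of thymocytes. Its GRCm38 position is chr10:28668360-28883818, plus strand. WT 1 and WT 2 held 1199 and 970 reads of it and cKO 1 and cKO 2 held 714 and 662, or 183 and 217 CPM against 136 and 141 CPM. Both cKO libraries lay below both WT libraries. The mean was 200.4 ± 24.0 CPM (SD, n = 2) in WT and 138 ± 3.29 CPM (SD, n = 2) in cKO. On the log2 scale the cKO level differed by -0.53 (SE 0.11, adjusted p = 0.0345 by the quasi-likelihood test of edgeR), and the fold lay between 0.58 and 0.82 at 95%. The difference was larger than the gap between the WT libraries, which was 0.24 on the log2 scale. Without WT 2 the value was -0.41 and the call was lost (adjusted p = 0.388). Its adjusted p over all alternatives ran from 0.000121 to 0.388. Summed markers of Treg, B and myeloid cells were higher, and those of CD8 T and NK cells, mainly *Cd8b1* and *Eomes*, lower, in the same cKO libraries. Of the activated or memory markers 5 of 9 were called lower, and of the naive markers *Dapl1* (-2.39) and *Ccr7* (-0.62) were called lower and *Il7r* (1.04) higher. Of all genes tested, 1.95% were called lower and 2.35% higher. The part of any of these marker differences, or of sex, in the *Themis* result was not tested. Fewer cells of a type and less RNA per cell cannot be told apart in these bulk samples.

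The chains of the receptor complex included 0 of 4 genes called by edgeR, DESeq2 or voom (4.30%, 3.44% and 3.89% of all genes tested were), and 0 of 4 at an unadjusted p under 0.05 (19.1% were). *Cd3g*, *Cd3d* and *Cd3e* encode the CD3 gamma, delta and epsilon chains. They lie within 40.1 kb on chromosome 9, from 44969572 to 45009627, and *Cd3g* and *Cd3d* stand head to head with 1354 bases between them. *Cd3e* was at 815 and 797 CPM in WT 1 and WT 2 and at 966 and 788 CPM in cKO 1 and cKO 2. cKO 1 was the highest library and cKO 2 the lowest, so the groups overlapped (log2 fold change 0.12, SE 0.13, adjusted p = 0.663, interval of the fold 0.89 to 1.33). *Cd3g* was at 679 and 667 CPM against 745 and 691 CPM. Both cKO libraries were above both WT libraries, and the log2 fold change was 0.09 (SE 0.11, adjusted p = 0.691). *Cd3d* was at 358 and 363 CPM against 369 and 309 CPM, with a log2 fold change of -0.09 (SE 0.11, adjusted p = 0.734). *Cd247*, on chromosome 1, encodes the zeta chain, which carries most of the phosphorylation motifs of the complex. It was at 620 and 606 CPM in WT and 708 and 635 CPM in cKO (log2 fold change 0.13, SE 0.11, adjusted p = 0.569, interval of the fold 0.924 to 1.298). The exons of *Cd247* overlap *Pou2f1* on the opposite strand over 56.4% of their length. By default HTSeq drops reads that fall on more than 1 gene, and the strand setting is not given, so its level is uncertain. *Cd3e* changed call with 1 library, since without cKO 2 its value was 0.26 with an adjusted p of 0.0290, and without cKO 1 it was -0.04.

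Per kilobase of exonic sequence, the CD3 genes stood close together. The level was 204 to 228 CPM per kb for *Cd3g*, 193 to 237 CPM per kb for *Cd3e* and 170 to 203 CPM per kb for *Cd3d*, so these neighbours in the order overlapped over the 4 libraries. *Cd247* was at 114 to 133 CPM per kb over its whole exonic length, and its place in this order is uncertain because of the overlap with *Pou2f1*. With *Cd247* left aside, the highest means over the 4 libraries were those of *Lck* (294 CPM per kb), *Cd2* (279), *Dgka* (252), *Cd3g* (213) and *Lat* (211). The order varied between libraries, and in cKO 1 *Cd2* (301) stood above *Lck* (281). *Ppp3ca* (6.01 CPM per kb), *Malt1* (8.70) and *Sos1* (9.26) had the lowest. Exonic length here joins the exons of every annotated transcript, so genes with long alternative ends are placed too low.

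**Figure D2:**
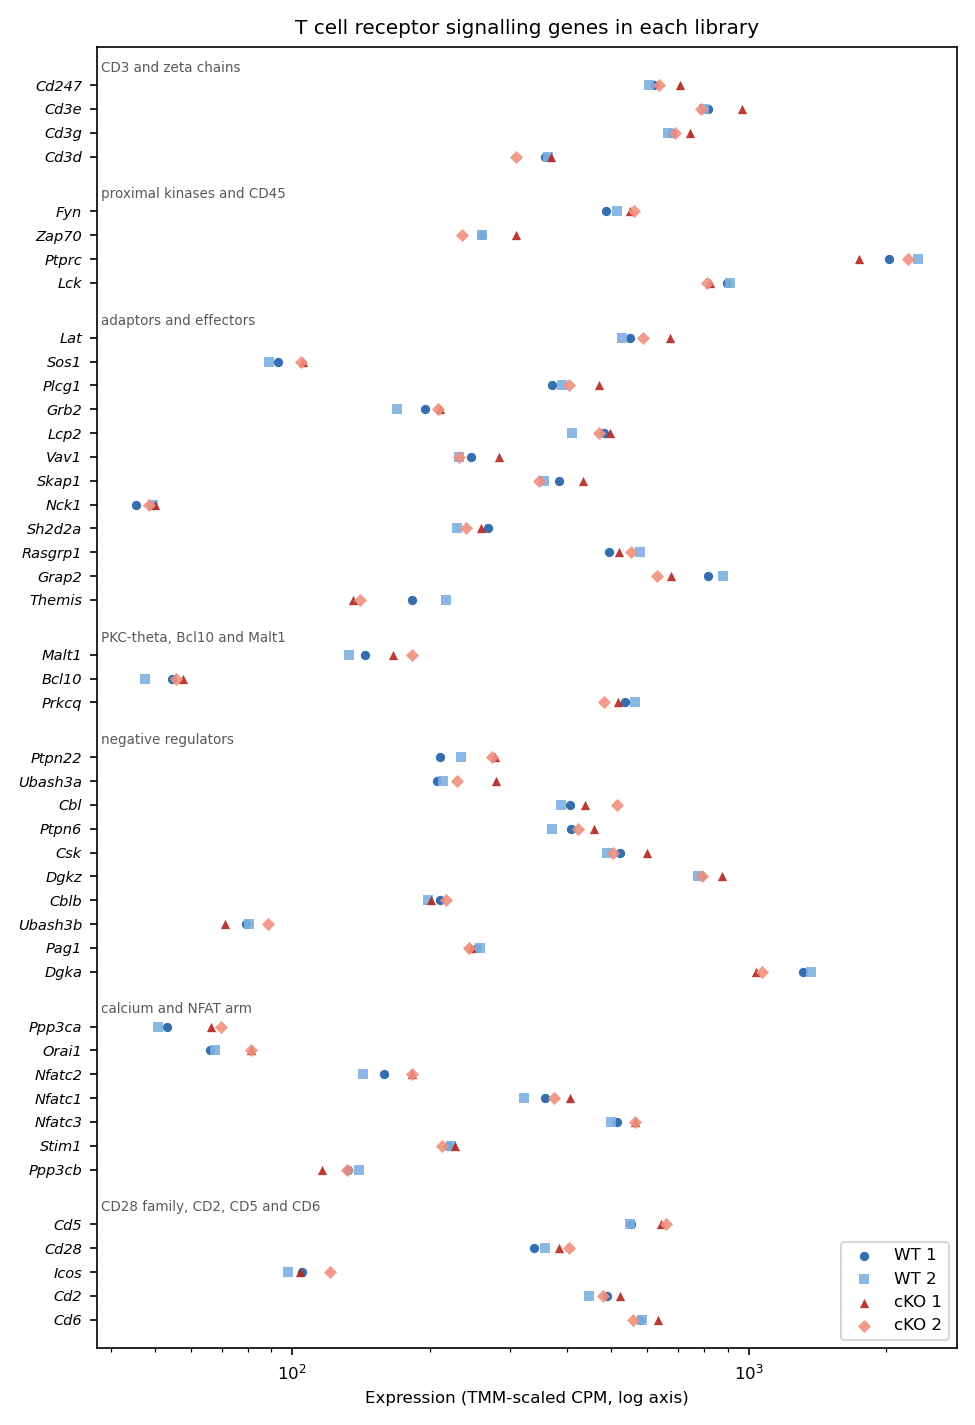
Expression of the 45 genes in each library, in TMM-scaled CPM on a log axis, with circles and squares for WT 1 and WT 2 and triangles and diamonds for cKO 1 and cKO 2. *Themis*, *Grap2* and *Dgka* show both cKO libraries below both WT libraries, while *Cd3e* shows cKO 1 apart from the other 3 libraries and *Zap70* has 1 cKO library on each side of WT.

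The proximal kinases and CD45 were all 4 bounded within 1.5-fold (47.5% of all genes tested were), with 0 of 4 called by edgeR, DESeq2 or voom and 0 of 4 at an unadjusted p under 0.05 (4.30% by edgeR and 19.1% were). *Lck*, the Src family kinase bound to the CD4 tail, was at 897 and 912 CPM in WT and 822 and 810 CPM in cKO. The cKO libraries were lower and the groups did not overlap (log2 fold change -0.15, SE 0.11, adjusted p = 0.499). *Fyn*, the other Src family kinase of the pathway, went the opposite way, with 487 and 515 CPM against 551 and 561 CPM (log2 fold change 0.15, SE 0.10, adjusted p = 0.467). *Zap70*, the kinase that binds the phosphorylated chains, was at 259.9 and 260.4 CPM in WT and at 309 and 235 CPM in cKO, 1 above and 1 below WT. Its log2 fold change was 0.07 (SE 0.13, adjusted p = 0.839). It was 0.25 without cKO 2, with an adjusted p of 0.0406, and -0.15 without cKO 1. *Ptprc* encodes CD45, the phosphatase that keeps LCK ready to act, and had the highest counts of the list. It was at 2031 and 2349 CPM against 1746 and 2239 CPM, overlapping between the groups, with a log2 fold change of -0.14 (SE 0.16, adjusted p = 0.704). Without cKO 2 it was -0.32 with an adjusted p of 0.0152, and without cKO 1 it was 0.03.

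Of the 12 adaptors and effectors, *Themis* was the gene called, or 8.33% against 4.30% of all genes tested. A fitted value above 0 was found for 9 of the 12, as for 49.8% of all genes tested. *Grap2* encodes GADS, the adaptor that joins SLP-76 to LAT. It was at 814 and 878 CPM in WT and 676 and 629 CPM in cKO, with no overlap, and the mean was 846 ± 44.8 CPM against 652 ± 33.2 CPM (SD, n = 2 each). The log2 fold change of -0.37 (SE 0.11) did not pass, with an adjusted p of 0.102, and the fold lay between 0.65 and 0.92 at 95%. *Grap2* passed under the exact test of edgeR (0.0318), without a low-count filter (0.00917), without cKO 1 (0.00200) and without cKO 2 (0.00847), and its adjusted p was at most 0.687 over all alternatives. *Lat*, the scaffold, was at 550 and 527 CPM in WT and 674 and 586 CPM in cKO. Its libraries did not overlap, and the log2 fold change was 0.23 (SE 0.11, adjusted p = 0.320). Without cKO 2 it was 0.32, and without cKO 1 it was 0.12. *Plcg1*, the phospholipase that yields the calcium signal, was at 0.20 on the same scale (adjusted p = 0.361). It was at 0.31 without cKO 2 and at 0.09 without cKO 1. The others, *Sos1*, *Grb2*, *Lcp2* (SLP-76), *Vav1*, *Skap1*, *Nck1*, *Sh2d2a* and *Rasgrp1*, had log2 fold changes between -0.00 and 0.21 and none was called.

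The genes of protein kinase C theta and its partners in NF-kB activation were not called by edgeR, DESeq2 or voom, and 1 of 3 had an unadjusted p under 0.05 (19.1% of all genes tested did). *Malt1*, the protease of that complex, was at 145 and 133 CPM in WT and 167 and 183 CPM in cKO. Both cKO libraries were above both WT libraries (log2 fold change 0.33, SE 0.10, adjusted p = 0.125, interval of the fold 1.07 to 1.48). The value was 0.39 without cKO 1 and 0.26 without cKO 2. *Bcl10*, its scaffold, had a log2 fold change of 0.15 and *Prkcq*, the kinase, of -0.13 (adjusted p = 0.581 and 0.535).

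Among the 10 negative regulators, 7 had a fitted value above 0 (49.8% of all genes tested did), 4 had an unadjusted p under 0.05 (40.0%, against 19.1%) and none was called by edgeR's quasi-likelihood test, DESeq2 or voom. *Dgka* encodes the diacylglycerol kinase that removes the lipid that activates RASGRP1. It was at 1313 and 1372 CPM in WT and 1036 and 1072 CPM in cKO. Both cKO libraries were lower, and the mean was 1342 ± 41.3 CPM against 1054 ± 25.5 CPM (SD, n = 2 each). The log2 fold change of -0.35 (SE 0.11) did not pass, with an adjusted p of 0.137 and an interval of the fold from 0.66 to 0.94. *Dgka* passed under the exact test (0.0435), without a low-count filter (0.0138), without cKO 1 (0.0124) and without cKO 2 (0.00241), and its adjusted p was at most 0.729 over all alternatives. *Ptpn22*, a phosphatase that acts on LCK and ZAP-70, was at 211 and 234 CPM in WT and 279 and 274 CPM in cKO (log2 fold change 0.31, SE 0.10, adjusted p = 0.127). Its libraries did not overlap, and it passed without cKO 1 (0.0365) and without cKO 2 (0.00802).

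*Ubash3a* encodes a regulator of ZAP-70 signalling of the TULA family. It was at 207 and 214 CPM in WT and 280 and 229 CPM in cKO, with cKO 1 the highest library. The log2 fold change was 0.28 (SE 0.12, adjusted p = 0.242). It was 0.41 without cKO 2 and 0.12 without cKO 1. *Cbl*, a ubiquitin ligase for activated kinases, was at 407 and 388 CPM in WT and 438 and 516 CPM in cKO. Here cKO 2 was the highest library (log2 fold change 0.26, SE 0.11, adjusted p = 0.253). Without cKO 1 the value was 0.37, and without cKO 2 it was 0.14. *Cblb*, the ligase best known for enforcing the need for CD28 help, was at 211 and 198 CPM against 201 and 217 CPM, with overlap and a log2 fold change of 0.03 (SE 0.10, interval of the fold 0.88 to 1.19). The log2 fold changes of *Csk*, *Pag1*, *Ptpn6* (SHP-1), *Ubash3b* and *Dgkz* lay between -0.06 and 0.18. Of these *Csk* alone changed its call with 1 library, and it was at 0.24 without cKO 2 and -0.01 without cKO 1.

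In the calcium and NFAT arm 5 of 7 genes had a fitted value above 0 (49.8% of all genes tested did), 3 of them at an unadjusted p under 0.05 (42.9% of the 7, against 19.1%), and none was called by edgeR, DESeq2 or voom. *Ppp3ca*, the alpha catalytic subunit of calcineurin, was at 53.1 and 50.9 CPM in WT and 66.3 and 69.7 CPM in cKO. Both cKO libraries were higher, by more than either pair of replicates differed. The log2 fold change of 0.39 (SE 0.11, adjusted p = 0.104, interval of the fold 1.09 to 1.56) was the highest of the 45. It was 0.42 without cKO 1 and 0.35 without cKO 2. *Orai1*, the pore of the calcium channel, was at 65.9 and 67.7 CPM against 81.4 CPM in both cKO libraries (log2 fold change 0.29, SE 0.11, adjusted p = 0.193). *Nfatc2*, a transcription factor that calcineurin sends to the nucleus, was at 159 and 143 CPM against 183 CPM in both cKO libraries (log2 fold change 0.27, SE 0.10, adjusted p = 0.185). For both genes the cKO libraries were higher with no overlap.

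*Nfatc1*, the family member induced by activation, was at 358 and 322 CPM in WT and 406 and 374 CPM in cKO (log2 fold change 0.20, SE 0.10, adjusted p = 0.353). It was 0.25 without cKO 2 and 0.13 without cKO 1. *Nfatc3* was at 0.16 and *Ppp3cb*, the beta catalytic subunit, at -0.13 on the log2 scale. *Stim1*, the calcium sensor of the endoplasmic reticulum, had a value of -0.00 and an interval of the fold from 0.86 to 1.16.

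The surface receptors that tune the response had fitted values above 0 throughout, 1 of 5 at an unadjusted p under 0.05 (19.1% of all genes tested did), and none was called by edgeR, DESeq2 or voom. *Cd5*, an inhibitory receptor whose level follows the strength of self-recognition, was at 553 and 550 CPM in WT and 643 and 658 CPM in cKO. The groups did not overlap, and on the log2 scale the WT libraries differed by -0.0087 and the cKO libraries by 0.0323. The log2 fold change was 0.24 (SE 0.10, adjusted p = 0.244, interval of the fold 1.01 to 1.38). It was 0.25 without cKO 1 and 0.22 without cKO 2. *Cd6*, its neighbour 50.3 kb away on chromosome 19, was at 578 and 583 CPM against 632 and 557 CPM, with overlap and a log2 fold change of 0.03 (SE 0.11). *Cd28*, the main costimulatory receptor, was at 339 and 358 CPM in WT and 384 and 403 CPM in cKO (log2 fold change 0.18, SE 0.10, adjusted p = 0.377). *Icos*, a CD28 relative induced by activation, was at 105 and 98.1 CPM against 104 and 121 CPM, with overlap (log2 fold change 0.14, SE 0.11, adjusted p = 0.555). *Cd2*, an adhesion receptor, was at 0.10 on the log2 scale (adjusted p = 0.665).

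Several members have a relative in the list that does similar work, and the balance of each pair was taken as a share of their summed CPM per kb. *Lck* made up 73.3% and 72.5% of the *Lck* and *Fyn* pair in WT and 69.0% and 68.3% in cKO. *Dgka* made up 68.7% and 70.0% of the *Dgka* and *Dgkz* pair in WT and 60.9% and 64.1% in cKO. *Ppp3ca* made up 26.2% and 24.3% of the calcineurin pair in WT and 33.5% and 31.9% in cKO. In each of these pairs the shares did not overlap between the genotypes, and the gene with the larger share was the same in all 4 libraries. The same held for *Grb2* with *Grap2*, *Cbl* with *Cblb*, *Cd5* with *Cd6* and *Nfatc2* with *Nfatc3*. Shares were not taken for pairs outside the list, and 50.3% of all genes tested did not overlap in CPM. *Grb2* made up 33.96% and 29.3% of its pair with *Grap2* in WT and 40.0% and 41.6% in cKO. The share of *Ubash3a* with *Ubash3b* stood at 63.0% and 63.5% in WT and 72.0% and 62.8% in cKO, where cKO 1 stood apart from the other 3 libraries. *Cd28* made up 64.3% and 67.2% of its pair with *Icos* in WT and 67.3% and 65.2% in cKO, with overlap. *Cbl* made up 62.1% and 62.4% of its pair with *Cblb* in WT and 64.9% and 66.9% in cKO. *Cd5* made up 60.7% and 60.4% of its pair with *Cd6* in WT and 62.2% and 65.6% in cKO. The share of *Nfatc2* with *Nfatc3* was 25.6% and 24.1% in WT and 26.4% in both cKO libraries. With 2 libraries against 2, an exact permutation test of a share cannot give a two-sided p under 0.333, so none was run.

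**Figure D3:**
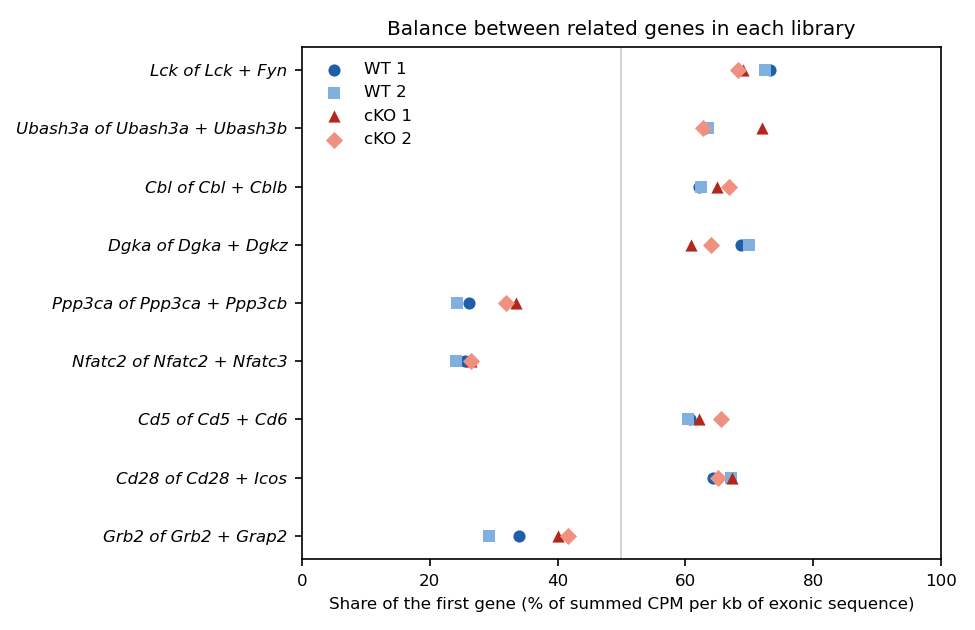
Share of the first gene of each pair, in percent of the summed CPM per kb of exonic sequence, with a marker for each library. Shares of *Lck*, *Dgka*, *Ppp3ca*, *Grb2*, *Cbl*, *Cd5* and *Nfatc2* fall into separate genotype groups, while those of *Cd28* with *Icos* and *Ubash3a* with *Ubash3b* overlap.

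A list of 57 other genes of the pathway was read from the same fit, and 6 of them were called, 5 higher and 1 lower in cKO. This is 10.5% against 4.30% of all genes tested, with a median log2 fold change of 0.03. The list was chosen with earlier results of these data known, so this share describes the list and is not a test of it. The genes that rose were *Tnfaip3*, which encodes the NF-kB inhibitor A20 (91.2 and 84.5 CPM against 135 CPM in both cKO libraries, log2 fold change 0.62, adjusted p = 0.0134), *Lax1*, *Sos2*, *Pik3r1* and *Tespa1*. *Lax1*, an adaptor that restrains antigen receptor signals, was at 95.6 and 106 CPM against 180 and 146 CPM (0.70, adjusted p = 0.0195). *Sos2*, a RAS exchange factor, was at 50.6 and 52.2 CPM against 88.0 and 73.1 CPM (0.65, adjusted p = 0.0267). *Pik3r1*, which encodes a regulatory subunit of PI3 kinase, was at 294 and 281 CPM against 468 and 376 CPM (0.55, adjusted p = 0.0422). *Tespa1*, which takes part in calcium signalling, was at 89.2 and 81.8 CPM against 114 and 128 CPM (0.50, adjusted p = 0.0451). Its call was lost with total-count scaling (adjusted p = 0.0513) and DESeq2 (0.0749). *Txk*, a TEC family kinase, fell from 141 and 153 CPM to 105 and 89.9 CPM (-0.59, adjusted p = 0.0258). Of the 57, 27 (47.4%) did not overlap between the genotypes, these 6 among them, against 50.3% of all genes tested. All 6 lost the call without WT 2, where the adjusted p ran up to 0.412, and *Sos2*, *Pik3r1* and *Tespa1* lost it without WT 1 as well. The number of the 57 called was 3 without WT 1, 0 without WT 2, 15 without cKO 1 and 14 without cKO 2, in fits that called 3.62%, 1.39%, 11.7% and 13.8% of all genes tested.

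Genes that antigen signals switch on were read as targets of the pathway. Of 12 on the list 11 were tested, and *Cd69* was called (9.09%, against 4.30% of all genes tested). *Cd69*, an early activation marker, rose from 136 and 127 CPM in WT to 268 and 186 CPM in cKO, with cKO 1 the highest library (log2 fold change 0.79, SE 0.16, adjusted p = 0.0292). It was 0.50 without cKO 1 and lost the call without WT 2 (0.74, adjusted p = 0.193). The median log2 fold change of the 11 was 0.15, with values from -0.61 to 0.86. Fitted values were above 0 for 7 of the 11, as for 49.8% of all genes tested. They were below 0 for 4, which were *Nr4a2* (-0.61), *Myc* (-0.46), *Nr4a1* (-0.11) and *Egr1* (-0.01). This list too was chosen with earlier results of these data known.

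**Figure D4:**
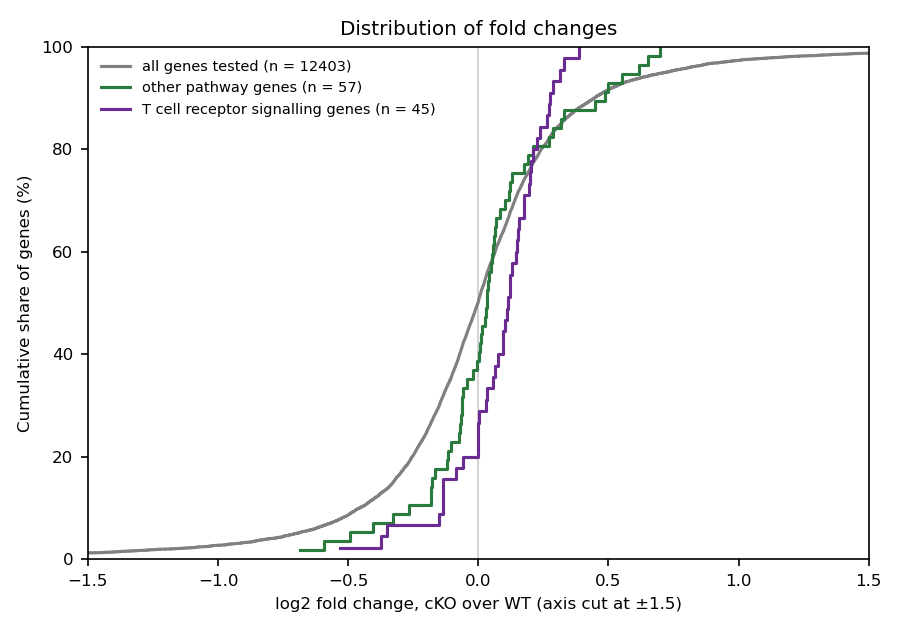
Cumulative share of genes, in percent, against the log2 fold change, cKO over WT, for the 45 TCR signalling genes, the 57 other pathway genes and all 12403 genes tested. The curve of the 45 genes is steep, spanning -0.53 to 0.39 with its median at 0.12, while that of all genes tested has its median at -0.0015 and runs past both ends of the axis.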

How the data were processed

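Reads were aligned to mm10 with HISAT2 2.1.0 and counted per gene with HTSeq 0.11.1, according to the submitters' processing notes, and the authors deposited raw counts per gene for each library. The annotation and strand setting are not given in the sources used here, and the library kit named does not mark strand. The 5 HTSeq summary lines per table were left out. Among them, reads that HTSeq assigned to no feature made up 59.4% to 64.5% of uniquely aligned reads. With the strand setting unknown, some of these may lie within genes.

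Genes were kept with filterByExpr and libraries were scaled by TMM in edgeR 4.0.16 under R 4.3.3. Genotype was tested with the two-sided quasi-likelihood F test and no covariate, with Benjamini-Hochberg adjustment over all 12403 genes, and genes were called at an adjusted p under 0.05. The SE is the absolute log2 fold change divided by the square root of F, and 95% intervals use the t quantile on the total degrees of freedom of the fit. CPM are on TMM-scaled library sizes. The procedure was run on simulated counts that gave all genes a common dispersion in both genotypes. That setting differs from the spread of the replicates here, so it cannot vouch for these calls or intervals. Positions and exonic lengths came from GENCODE M21 on GRCm38, the assembly of mm10, and promoter windows from RefSeq GRCm38.p6. Plots were drawn with matplotlib 3.10.9.

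The members and lists were chosen with earlier results of these data known. Values in every library are given for called members, for the 10 uncalled members with the smallest p and for fixed landmark members, and for called genes of the other pathway and antigen target lists. *Satb1*, *Foxp3* and *Pdcd1* are given as checks. *Cd8a*, *Cd8b1*, *Eomes*, *Cd3g*, *Cd3d*, *Fyn* and *Cd6* were added after their values were seen. No p was adjusted over a list alone. Replicates are those of the labels, and WT 1 and WT 2 differed by more than sampling noise (chi-square per degree of freedom 3.00), as did cKO 1 and cKO 2 (7.09). The study calls them biological replicates. The alternatives were scaling, low-count filter, test (DESeq2 1.42.0, the exact test of edgeR, limma 3.58.1 voom), a replicate block and leaving out each library, where the lone library of a genotype is assumed to vary like the others.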

Additional observations from a re-analysis of the deposited data

How the results depend on the processing

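*Themis* remained the only one of the 45 genes called under RLE scaling, total-count scaling, a filter of 1 CPM in 2 libraries, DESeq2, voom and the replicate block. The exact test and the fit with no low-count filter called 3 each, and these were *Themis*, *Grap2* and *Dgka*. Over all genes tested, 533 were called, against 1367 with no filter, 1044 by the exact test and 1165 with the replicate block. Other pathway genes called numbered 6, against 11 with no filter (5.72% of all genes tested were called), 10 with the replicate block (9.39%), 9 by the exact test (8.42%) and 7 with RLE scaling (4.38%). What caused them was not tested. The labels do not say whether same-numbered libraries share more than a number (correlation of their deviations 0.0655), and this was not tested further. The block changed no call among the 45 genes, while over all genes it raised the number called from 533 to 1165.

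Leaving out a library gave 180 to 1790 genes called in all, 0 to 12 of the 45, 0 to 15 of the other pathway genes, and 21 to 42 of the 45 bounded within 1.5-fold. The median of the 45 ran from 0.048 to 0.158, and *Satb1* from -0.1294 to 0.0415. Genes that changed sign in these fits were *Cd3d* (-0.2233 to 0.0373), *Cd3e* (-0.0351 to 0.2627), *Zap70* (-0.15 to 0.25), *Ptprc* (-0.324 to 0.0298), *Lcp2* (-0.0014 to 0.25), *Rasgrp1* (-0.10 to 0.11), *Vav1* (-0.0473 to 0.246), *Nck1* (-1e-04 to 0.11), *Sh2d2a* (-0.11 to 0.13), *Skap1* (-0.10 to 0.23), *Csk* (-0.0122 to 0.2406), *Ubash3b* (-0.16 to 0.15), *Cblb* (-0.0248 to 0.0817), *Stim1* (-0.0534 to 0.0461) and *Cd6* (-0.062 to 0.1252). Values near 0 also changed sign elsewhere: *Rasgrp1* with RLE (0.003), total counts (0.0021), DESeq2 (0.003), voom (5e-04) and the replicate block (0.0015), *Ubash3b* with RLE (0.0036), total counts (0.0037) and DESeq2 (0.0041), *Stim1* with RLE (0.0016) and DESeq2 (0.0015), and *Sh2d2a* with no filter (-0.0029). *Tespa1* lost its call with total counts (adjusted p = 0.0513) and DESeq2 (0.0749). With 2 libraries in each genotype, the median SE of 0.11 on the log2 scale sets the precision for the 45 genes.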
